A study of Homo sapiens with 6 samples.

Results

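The genes described here are the human matrix metalloproteinases (MMPs), the ADAM and ADAMTS proteases and their tissue inhibitors (TIMPs). Members were the protein-coding genes whose symbol is MMP, TIMP, ADAM or ADAMTS followed by a number, matched to the count table by Ensembl identifier, and they were 66 of its 40295 rows: 23 MMPs, 20 ADAMs, 19 ADAMTS genes and 4 TIMPs. A further 8 rows with such symbols are not protein-coding and were left out. RNA-seq was performed on HDQ-P1, an established human cancer cell line, in 3 libraries from cells given Y-320 at 1 μM over 48 h and 3 libraries from untreated cells. Y-320 is a small molecule that the study examined as an enhancer of premature termination codon readthrough, and the question put to the RNA-seq was how it alters gene expression. Both groups were grown in the same serum-containing medium, no solvent is described for the untreated cells, and the labels do not say whether replicates came from separate cultures, so p-values measure only the spread between these libraries. Depth was 21045401 to 22740535 estimated counts per library.

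MMPs and ADAMTS enzymes are zinc proteases that cut collagens, proteoglycans and other proteins of the extracellular matrix, while ADAMs such as ADAM10 and ADAM17 sit in the membrane and release the outer parts of growth factors, cytokines and receptors. Most are made as inactive precursors. TIMPs are small secreted proteins that bind the active site of these enzymes, and TIMP2 also takes part in the activation of pro-MMP2 by MMP14 at the cell surface.

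A gene was taken as detected with at least 10 counts in at least 3 libraries. By this measure 45 of the 66 members (68.2%) were detected, against 72.5% of the 19810 protein-coding rows, and 43 reached 10 counts in all 6 libraries. All 4 TIMPs, all 6 membrane-type MMPs and all 3 procollagen N-propeptidases of the ADAMTS family were among them. Of the 21 members not detected, 7 had no count in any library, 8 never exceeded 3 counts and 6 reached at most 8 counts. A count of 0 allows up to 3 counts, or 0.132 to 0.143 CPM (counts relative to the library total) in these libraries, which covers counting error only. ADAM18, ADAM30, ADAM7, MMP26, MMP27, MMP3 and MMP8 were the 7 without a count. The 9 MMP genes that lie together on chromosome 11 (102520508 to 102955732 on hg38, 435 kb) included only 2 detected genes, MMP1 and MMP7. The collagenase gene MMP1 had estimated counts of 9, 10 and 10 without treatment and 22.6, 12 and 11 after Y-320, and MMP7, which encodes matrilysin, had estimated counts of 17, 36 and 25 without treatment and 24, 11 and 20 after Y-320. Neither passed the threshold.

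All 45 detected members entered edgeR's quasi-likelihood test, which was fitted to 16580 genes and read at an adjusted p under 0.05. With Y-320, 6 members were higher, which is 13.3% of those tested where 26.2% of all genes were higher, and 17 were lower, which is 37.8% where 25.4% of all genes were lower. The other 22 did not pass. Requiring an absolute log2 fold change of 0.5 or more left 5 higher members (11.1%, against 8.44% of all genes) and 11 lower members (24.4%, against 7.28%). In normalized CPM, the treated libraries were all above the untreated ones for 12 members (26.7%, against 29.8%) and all below for 21 (46.7%, against 29.4%). The median log2 fold change of the 45 members was -0.22, beside 0.00097 for all genes tested. The higher members were ADAMTS9, MMP15, ADAM12, TIMP4, ADAM17 and TIMP1. By family, 2 of 12 tested ADAMs were higher and 5 lower, 1 of 15 ADAMTS genes was higher and 6 lower, 1 of 14 MMPs was higher and 4 lower, and the TIMPs split into 2 higher and 2 lower. On the scale of normalized CPM, the treated and untreated libraries did not overlap for any of the 23 members past the threshold, although the estimated counts of ADAM19 and ADAM32 did.

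**Figure D1:**
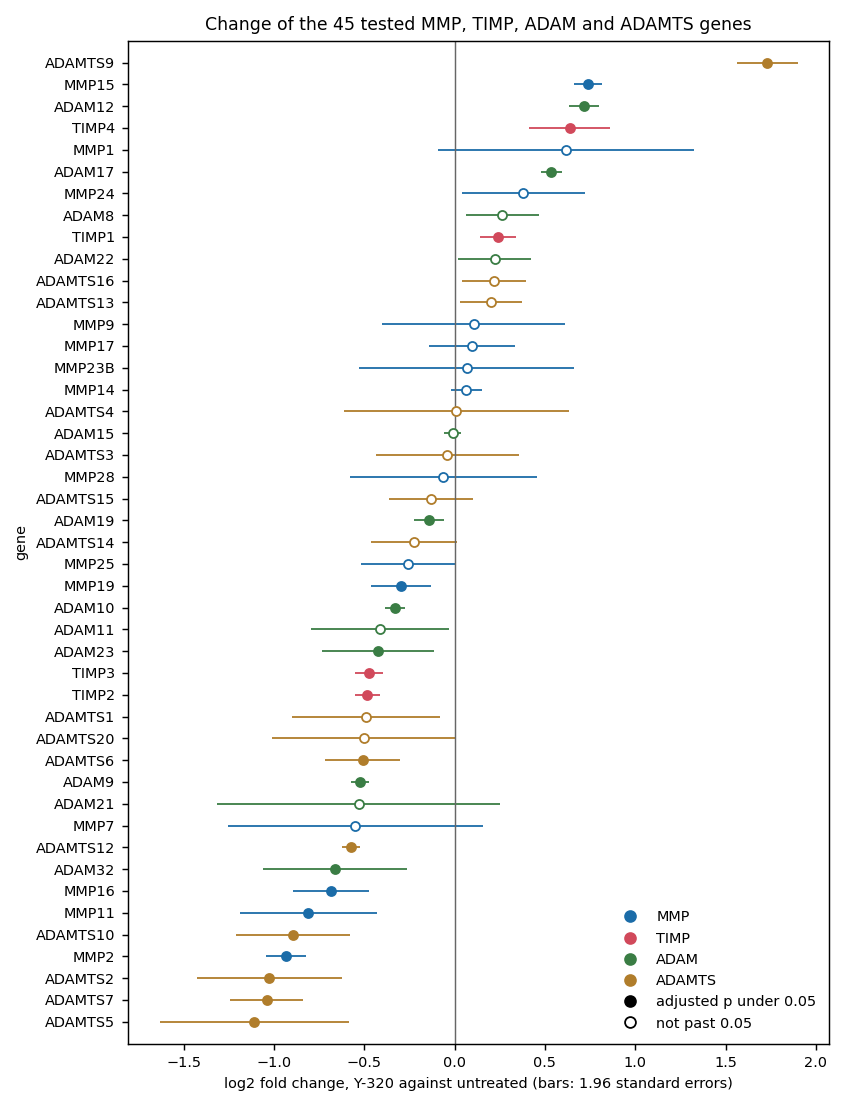
Log2 fold change of the 45 tested members, Y-320 against untreated, with 95% intervals as bars; colours give the family and filled points passed an adjusted p of 0.05. ADAMTS9 lies at 1.73, apart from the other 5 higher members, and the lower members reach -1.11.

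Markers of cell types were counted in the same libraries, where 26.2% of all genes were higher and 25.4% lower. Of 7 tested fibroblast markers 4 were lower with Y-320 and 0 higher, and the summed level of the 9 listed genes was 250.4 to 286.7 CPM in untreated libraries and 127.4 to 148.1 CPM with Y-320. COL1A1, COL1A2, LUM and PDGFRB were the 4 lower genes. The 11 epithelial markers were all tested, with 9 lower and 2 higher, and their summed level was 12141 to 12730 CPM untreated and 7584 to 7699 CPM with Y-320. Keratins made up most of that sum, and every listed keratin was lower. Of the other epithelial markers, EPCAM (log2 fold change 0.38) and ESRP1 (0.28) were higher, and GRHL2 (-0.86) and CDH1 (-0.11) lower. Of 5 tested leukocyte markers 3 were higher (summed level 41.6 to 44.4 CPM untreated and 80.7 to 86.0 CPM with Y-320), most of it CD68, while the B cell marker MS4A1 had no count in any library. The 4 tested endothelial markers gave 1 higher and 1 lower. All 6 libraries came from the HDQ-P1 line, so the names of the marker lists do not mean that such cell types were present. The part of these shifts in the protease values was not tested. A change in all cells of the line and a change in some of them cannot be told apart in bulk RNA.

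Per unit of transcript length, a small number of genes made up most of each family. Levels were compared between genes as CPM per kb of the Ensembl canonical transcript. Which transcripts these cells express was not determined, so the order of genes and the size of ratios between them depend on that length. In the untreated libraries ADAM10 was at 259 ± 2.19 normalized CPM and ADAM17 at 129 ± 3.95, but their canonical transcripts have 11158 and 4391 bases. TIMP2 had the highest level of all members, 157 ± 8.84 CPM per kb untreated and 112 ± 0.128 with Y-320. It was followed in the untreated cells by MMP2, ADAM15, ADAM9 and TIMP1, and with Y-320 by ADAM15, TIMP1, MMP2 and ADAM17. ADAM17 moved from place 8 to place 5 in this order and ADAMTS9 from 32 to 15, while MMP2 moved from 2 to 4. In the untreated libraries, the neighbours MMP14 (30.3 ± 2.04 CPM per kb) and ADAM17 (29.4 ± 0.9) differed by less than their spread.

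Of the 3 detected collagenase and gelatinase genes, only MMP2 passed, and it was lower (all genes, 26.2% higher and 25.4% lower). MMP2, the gelatinase that degrades denatured collagen and collagen of basement membranes (ENSG00000087245, hg38 chromosome 16, 55389700 to 55506691, plus strand), had estimated counts of 6123, 6706 and 7110 without treatment and 3494, 3639 and 3617 after Y-320. All treated libraries lay below all untreated ones (log2 fold change -0.93, standard error 0.056, edgeR adjusted p = 3.38e-07). The level was 307 ± 25.7 normalized CPM in the untreated libraries and 161 ± 7.11 with Y-320 (SD, n = 3 per group), so the treated mean was 0.524 times the untreated mean. MMP9, the other gelatinase, was low, with estimated counts of 38, 24 and 44 without treatment and 48, 40 and 29 after Y-320, and its libraries overlapped (log2 interval -0.40 to 0.61). Of the exon bases of MMP9, 18.4% lie over SLC12A5-AS1, and the gene shares 13.8% of its 31-base words with other genes.

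Among the 6 membrane-type MMPs, which are held at the cell surface, 1 was higher and 1 lower (all genes, 26.2% and 25.4%). MMP15 (ENSG00000102996, hg38 chromosome 16, 58025754 to 58046901, plus strand) had estimated counts of 632, 625 and 671 without treatment and 1110, 1074 and 1120 after Y-320. The groups lay well apart, with a treated mean 1.67 times the untreated mean (log2 fold change 0.74, standard error 0.039, edgeR adjusted p = 1.41e-07). MMP16, another transmembrane member, moved the other way, with estimated counts of 547, 400 and 486 without treatment and 359, 282 and 276 after Y-320 (log2 fold change -0.68, standard error 0.11, edgeR adjusted p = 0.000358). MMP14, the most abundant membrane-type gene and an activator of MMP2, had estimated counts of 2284, 2395 and 2599 without treatment and 2661, 2573 and 2595 after Y-320, with overlapping groups and a log2 fold change of 0.06 (log2 interval -0.02 to 0.15, edgeR adjusted p = 0.248). MMP17, MMP24 and MMP25 did not pass either, and their log2 fold changes were 0.10, 0.38 and -0.26. Of the exon bases of MMP24 and MMP25, 22.1% and 30.6% lie over other genes.

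Of the 12 stromelysins, matrilysins and other secreted MMPs, 5 were tested and 2 were lower (all genes, 25.4% lower). MMP11, known as stromelysin-3 and described mainly in the stroma of carcinomas, had estimated counts of 45.6, 46.2 and 54.8 without treatment and 25, 28.8 and 32.2 after Y-320. Although the counts are low, the groups did not overlap (log2 fold change -0.81, standard error 0.19, edgeR adjusted p = 0.00526). MMP19 had estimated counts of 200.5, 175.8 and 187.2 without treatment and 156.2, 149.9 and 165.4 after Y-320, a decrease of smaller size (log2 fold change -0.30, edgeR adjusted p = 0.0131), and the call was lost in DESeq2. The gene shares 15.9% of its 31-base words with other genes, and 17.6% of its exon bases lie over TMEM198B.

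The TIMPs divided by gene. TIMP2 (ENSG00000035862, hg38 chromosome 17, 78852977 to 78925387, minus strand) had estimated counts of 11869.9, 12226.2 and 13218 without treatment and 9372.1, 8981.6 and 9104.3 after Y-320, and the treated libraries were the lower ones (log2 fold change -0.48, standard error 0.036, edgeR adjusted p = 1.6e-06). TIMP3, which binds to the matrix and also inhibits ADAM17 and several ADAMTS enzymes, had estimated counts of 3773, 3302 and 3539 without treatment and 2822, 2519 and 2524 after Y-320, again with no overlap (log2 fold change -0.47, standard error 0.04, edgeR adjusted p = 4.02e-06). TIMP1, a secreted inhibitor of most MMPs, was modestly higher, with estimated counts of 812, 806 and 763 without treatment and 1000, 987 and 906 after Y-320 (log2 fold change 0.24, standard error 0.052, edgeR adjusted p = 0.00302). TIMP4, the inhibitor with the lowest level here, had estimated counts of 167, 126 and 125 without treatment and 240, 224 and 203.8 after Y-320 (log2 fold change 0.64, standard error 0.12, edgeR adjusted p = 0.000959). All 4 calls held in each fit that left out a library. TIMP1, TIMP3 and TIMP4 lie within the synapsin genes SYN1, SYN3 and SYN2. SYN2, over which 14.2% of the exon bases of TIMP4 lie, had only estimated counts of 11, 10 and 13 without treatment and 7, 14 and 16.2 after Y-320, and TIMP4 shares 12.0% of its 31-base words with other genes.

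**Figure D2:**
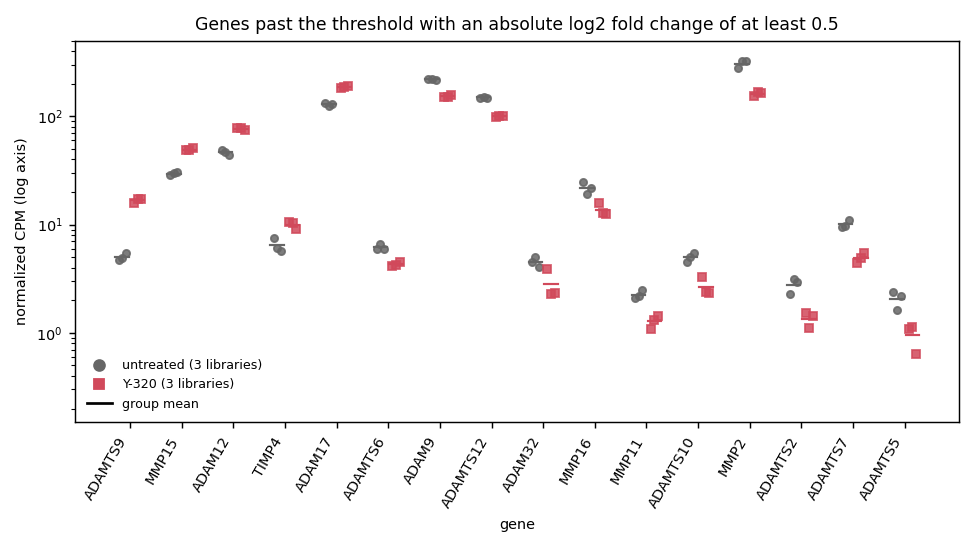
Normalized CPM on a log axis for the 16 members past the threshold with an absolute log2 fold change of at least 0.5; grey circles are the 3 untreated libraries, red squares the 3 Y-320 libraries and lines the group means. The groups do not overlap on this scale for any of the 16, and ADAMTS5, ADAMTS2 and MMP11 have means under 3 CPM in both groups.

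The ADAMs with a catalytic motif number 12, of which 8 were tested, 2 higher and 3 lower (all genes, 26.2% and 25.4%). ADAM17, the protease that releases tumour necrosis factor and ligands of the epidermal growth factor receptor (ENSG00000151694, hg38 chromosome 2, 9488486 to 9556732, minus strand), had estimated counts of 2925.4, 2600.6 and 2866.4 without treatment and 4192.8, 4075.9 and 4234.8 after Y-320. Its treated mean was 1.45 times the untreated mean (log2 fold change 0.54, standard error 0.03, edgeR adjusted p = 2.16e-07). It shares 14.6% of its 31-base words with other genes, and 11.7% of its exon bases lie over other genes, among them IAH1, which had a log2 fold change of -0.12 and did not pass. ADAM10, which cuts Notch receptors and cadherins (ENSG00000137845, hg38 chromosome 15, 58588809 to 58749791, minus strand), had estimated counts of 5776.3, 5384.5 and 5685 without treatment and 4553.8, 4537.3 and 4679.3 after Y-320 and was lower (log2 fold change -0.33, standard error 0.027, edgeR adjusted p = 3.56e-06). On the per-length scale, the ratio of ADAM17 to ADAM10 was 1.27 ± 0.0328 in untreated and 2.31 ± 0.0291 in treated libraries (SD, n = 3, two-sided exact permutation p = 0.1, the smallest that 3 against 3 allows). Since ADAM17 was higher and ADAM10 lower without overlap, the ratio had to separate the groups and adds no separate support.

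ADAM12, a protease found in placenta, muscle and tumours (ENSG00000148848, hg38 chromosome 10, 126012381 to 126388477, minus strand), was higher, with estimated counts of 1078, 982 and 974 without treatment and 1770, 1707 and 1642 after Y-320 (log2 fold change 0.71, standard error 0.042, edgeR adjusted p = 2.8e-07). ADAM9 had estimated counts of 4898, 4645 and 4831 without treatment and 3483, 3324 and 3463 after Y-320 and was lower (log2 fold change -0.53, standard error 0.025, edgeR adjusted p = 5.82e-08). For ADAM19, which takes part in neuregulin processing, the counts were close together, estimated counts of 1273, 1178 and 1271 without treatment and 1251, 1124 and 1093 after Y-320. Its small decrease (log2 fold change -0.14, edgeR adjusted p = 0.015) was lost without Y-320 replicate 2 (adjusted p = 0.0524) or without Y-320 replicate 3 (0.0658). ADAM15 was the ADAM with the highest level per length and did not pass, with estimated counts of 4829.1, 4663.5 and 4902.7 without treatment and 4998.8, 4874.8 and 4818.5 after Y-320 and a log2 fold change of -0.01 (log2 interval -0.06 to 0.04). ADAM8, found mainly on leukocytes, had estimated counts of 119, 103 and 111 without treatment and 130, 143 and 138 after Y-320 (log2 fold change 0.26, edgeR adjusted p = 0.0559), and passed without Y-320 replicate 1 (0.0402).

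The ADAMs without a catalytic motif or of the sperm surface gave 4 tested genes, of which 2 were lower (all genes, 25.4% lower). ADAM32, known mainly from testis, had estimated counts of 99.8, 103.8 and 88.8 without treatment and 88.9, 50.4 and 52.5 after Y-320. Treated replicate 1 lay near the untreated libraries, and the call (log2 fold change -0.66, standard error 0.2, edgeR adjusted p = 0.0199) was lost without untreated replicate 2 (adjusted p = 0.0709), Y-320 replicate 2 (0.0721) or Y-320 replicate 3 (0.0723). ADAM23, an integrin-binding protein of the nervous system, had estimated counts of 59, 60 and 70 without treatment and 53, 43 and 49 after Y-320, and its call (log2 fold change -0.42, edgeR adjusted p = 0.0461) was lost in all 6 fits that left out a library, with adjusted p from 0.0542 to 0.145. ADAM22 and ADAM11 did not pass, with log2 fold changes of 0.22 and -0.41.

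Of 6 tested proteoglycan-cleaving ADAMTS enzymes, 1 was higher and 1 lower (all genes, 26.2% and 25.4%). These were ADAMTS9 and ADAMTS5, with the highest and the lowest log2 fold change among the 45 tested members. The interval of ADAMTS5 (-1.63 to -0.59) also covers the values of ADAMTS7 and ADAMTS2, so the order at the lower end is not settled. ADAMTS9, which cleaves versican and aggrecan (ENSG00000163638, hg38 chromosome 3, 64515654 to 64688000, minus strand), had estimated counts of 103, 103 and 122 without treatment and 359, 378 and 382 after Y-320. The 3 treated libraries lay close together and far above the untreated ones. The level was 5.04 ± 0.44 normalized CPM in the untreated libraries and 16.8 ± 0.9 with Y-320, 3.32 times as high (log2 fold change 1.73, standard error 0.086, edgeR adjusted p = 7.97e-08), and the log2 fold change lay between 1.67 and 1.80 when each library was left out. The antisense gene ADAMTS9-AS1 lies over 1.63% of its exon bases. ADAMTS5, the main aggrecanase of mouse cartilage (ENSG00000154736, hg38 chromosome 21, 26917922 to 26967088, minus strand), had estimated counts of 53, 34 and 48 without treatment and 25, 25 and 14 after Y-320 (log2 fold change -1.11, standard error 0.27, edgeR adjusted p = 0.00538). Its neighbour on chromosome 21, ADAMTS1, had estimated counts of 92.6, 61.3 and 65.1 without treatment and 51.2, 65.2 and 44 after Y-320 and did not pass (log2 fold change -0.49, edgeR adjusted p = 0.0753), although it did without Y-320 replicate 2 (0.0311). ADAMTS4, ADAMTS15 and ADAMTS20 did not pass, and ADAMTS8 was not detected.

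ADAMTS2, which removes the amino-terminal propeptide of fibrillar procollagens, had estimated counts of 49.7, 64.6 and 65 without treatment and 34.8, 24.4 and 32.1 after Y-320 (log2 fold change -1.03, standard error 0.21, edgeR adjusted p = 0.00183). The other 2 procollagen N-propeptidases, ADAMTS3 and ADAMTS14, did not pass, with log2 fold changes of -0.04 and -0.22. Of 6 tested other ADAMTS genes, 4 were lower and none higher (all genes, 25.4% and 26.2%). ADAMTS12, by level per length the leading ADAMTS gene, had estimated counts of 3296.1, 3159.6 and 3286.8 without treatment and 2272.9, 2217.8 and 2246.1 after Y-320 (log2 fold change -0.57, standard error 0.026, edgeR adjusted p = 4.15e-08). ADAMTS7, which like ADAMTS12 cleaves cartilage oligomeric matrix protein, had estimated counts of 212.4, 203.6 and 242.8 without treatment and 101.5, 106.8 and 119.7 after Y-320 (log2 fold change -1.04, standard error 0.1, edgeR adjusted p = 1.33e-05), and shares 26.5% of its 31-base words with other genes. ADAMTS10, linked to fibrillin microfibrils, had estimated counts of 99, 104 and 121 without treatment and 75, 52 and 52 after Y-320 (log2 fold change -0.90, standard error 0.16, edgeR adjusted p = 0.000906). ADAMTS6, a close relative of ADAMTS10, had estimated counts of 131, 138 and 131 without treatment and 95, 93 and 101 after Y-320 (log2 fold change -0.51, standard error 0.11, edgeR adjusted p = 0.00234). ADAMTS16 had estimated counts of 158, 164 and 187 without treatment and 196, 208 and 204 after Y-320 and did not pass (log2 fold change 0.22, edgeR adjusted p = 0.0701), but passed without untreated replicate 3 (0.0460).

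Summed over a family on the per-length scale, the MMPs were at 137.5 ± 9.68 CPM per kb in untreated and 100.5 ± 1.87 in treated libraries (SD, n = 3 per group), and the TIMPs at 245.8 ± 6.32 and 202.7 ± 3.92. The make-up of the sums shifted. MMP2 made up 63.5% ± 0.930 of the MMP sum in untreated and 45.6% ± 1.21 in treated libraries, while MMP14 went from 22.0% ± 0.190 to 31.5% ± 0.450 and MMP15 from 5.32% ± 0.222 to 12.1% ± 0.175. TIMP1 was 19.4% ± 1.14 of the TIMP sum and then 27.8% ± 0.914, against 63.9% ± 2.14 and 55.5% ± 1.10 for TIMP2. A larger share is not a higher level, since MMP14 itself did not pass the test. Among the ADAMs, whose sum was 201.8 ± 0.571 CPM per kb untreated and 195.6 ± 1.14 with Y-320, ADAM9 went from 26.7% ± 0.192 to 19.1% ± 0.283 and ADAM17 went from 14.6% ± 0.436 to 21.8% ± 0.377. ADAMTS9 made up 2.30% ± 0.184 of the ADAMTS sum in untreated and 9.78% ± 0.405 in treated libraries.

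**Figure D3:**
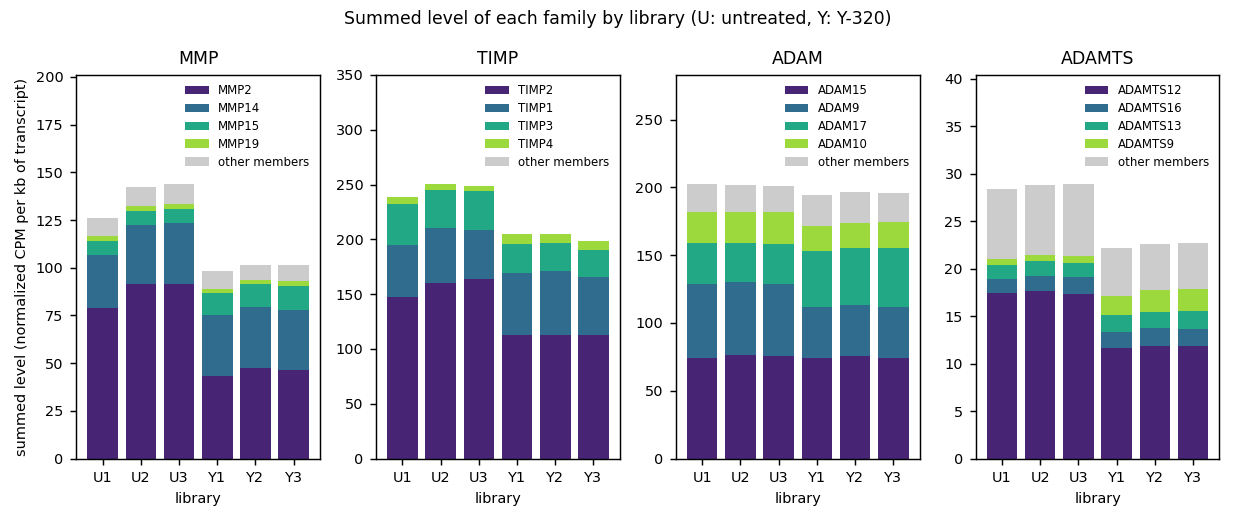
Stacked bars of the summed level of each family (normalized CPM per kb of transcript, a separate axis for each family) in the 3 untreated (U1 to U3) and 3 Y-320 libraries (Y1 to Y3), divided by gene. In the MMP panel the MMP2 segment shrinks from 63.5% to 45.6% of the bar on average, and in the ADAMTS panel the ADAMTS9 segment grows from 2.30% to 9.78%.

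Ratios between these genes did not all shift the same way. MMP2 relative to TIMP2 was 0.555 ± 0.0173 in untreated and 0.407 ± 0.0175 in treated libraries, whereas MMP14 relative to TIMP2 was 0.192 ± 0.00222 and 0.281 ± 0.00125. Both ratios are taken over TIMP2, which was lower with Y-320, and MMP14 itself did not pass, so the larger MMP14 ratio goes with the decrease of TIMP2. MMP14 relative to MMP2 was 0.347 ± 0.00754 and 0.692 ± 0.0275, and TIMP1 relative to TIMP2 lay between 0.274 and 0.325 and between 0.473 and 0.522. With ADAM17 over ADAM10, 5 ratios of single genes were compared, and each had a two-sided exact permutation p = 0.1 (n = 3 per group), which no such comparison can go below. For ADAM17 over ADAM10 and TIMP1 over TIMP2 this outcome was fixed, because the genes of each pair moved in opposite directions without overlap. These ratios restate the gene results and add no separate support. The summed MMPs over the summed TIMPs gave 0.559 ± 0.0259 and 0.496 ± 0.0164.

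Promoter sequence was examined in the 250 bases before the RefSeq gene start (RefSeq, GRCh38.p14). The table held 40 windows of 39 members, whether or not they were tested or changed. ADAMTS9 among the higher members, and MMP2, MMP16, MMP19, TIMP2, ADAM9, ADAM32 and ADAMTS5 among the lower ones, had no window, and ADAMTS10 had 2. The core letters of the hypoxia response element, ACGTG on either strand, occurred in 13 of 40 member windows (32.5%) and in 18.5% of all 35116 windows, and those of the AP-1 site, TGANTCA, in 4 (10%) and 6.57%. The 13 included windows of ADAM30, ADAMTS17, MMP10, MMP20, MMP21 and MMP27, which were not detected in these cells. MMP10 and MMP20 were also among the 4 with TGANTCA. The differences from all windows were not tested. ACGTG was found in 3 of 5 windows of higher members (ADAM12, ADAM17 and TIMP1) and in 2 of 11 windows of lower members (ADAM10 and ADAMTS6), and TGANTCA in 0 and 1 (ADAMTS12). Shown are the windows with a match among members past the threshold, in gene sense with matches in capitals, apart from that of ADAM10, which reaches 84 bases into annotated exons of its gene. The windows shown reach 18 bases (ADAM17), 28 bases (TIMP1) and 29 bases (ADAMTS12) into such exons, and those of ADAM12 and ADAMTS6 reach 0. RefSeq and GENCODE gene starts can differ. The ADAM17 window lies wholly inside the GENCODE span given above for that gene, so its match is not upstream of that span. Windows of MMP11 and ADAMTS10 (1 of its 2) also lie inside the GENCODE span of their gene. They are chr10:126388478-126388727 on the minus strand for ADAM12, chr2:9555831-9556080 on the minus strand for ADAM17, chrX:47582186-47582435 on the plus strand for TIMP1, chr5:65481921-65482170 on the minus strand for ADAMTS6 and chr5:33891991-33892240 on the minus strand for ADAMTS12.
ADAM12: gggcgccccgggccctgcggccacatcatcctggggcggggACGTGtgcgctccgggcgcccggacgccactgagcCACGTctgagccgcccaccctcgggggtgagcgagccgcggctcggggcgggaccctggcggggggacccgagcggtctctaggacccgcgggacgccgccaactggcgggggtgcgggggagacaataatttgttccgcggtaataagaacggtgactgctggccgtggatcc
ADAM17: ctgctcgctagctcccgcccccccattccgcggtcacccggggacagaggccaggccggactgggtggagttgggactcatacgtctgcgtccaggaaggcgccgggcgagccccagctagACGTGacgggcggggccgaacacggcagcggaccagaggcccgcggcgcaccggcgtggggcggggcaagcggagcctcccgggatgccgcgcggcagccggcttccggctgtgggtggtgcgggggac
TIMP1: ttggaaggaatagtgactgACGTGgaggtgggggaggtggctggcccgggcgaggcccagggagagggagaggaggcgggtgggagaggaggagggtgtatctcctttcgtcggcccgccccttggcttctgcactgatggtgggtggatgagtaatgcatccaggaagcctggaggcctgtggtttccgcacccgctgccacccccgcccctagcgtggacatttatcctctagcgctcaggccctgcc
ADAMTS6: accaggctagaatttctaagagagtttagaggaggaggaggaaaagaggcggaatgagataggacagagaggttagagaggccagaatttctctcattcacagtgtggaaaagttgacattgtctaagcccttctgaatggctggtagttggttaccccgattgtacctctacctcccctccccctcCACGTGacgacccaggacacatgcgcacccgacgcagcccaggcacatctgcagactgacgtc
ADAMTS12: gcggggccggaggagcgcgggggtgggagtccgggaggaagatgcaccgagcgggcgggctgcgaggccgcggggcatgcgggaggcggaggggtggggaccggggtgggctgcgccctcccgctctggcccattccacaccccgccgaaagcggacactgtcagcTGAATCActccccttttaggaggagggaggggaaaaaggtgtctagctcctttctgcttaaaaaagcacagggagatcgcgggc
In ADAM12 the capitals mark 2 separate matches, one on each strand. In ADAMTS6 they mark CACGTG, which reads as ACGTG on both strands at overlapping positions and was counted as 2. ADAM17 and TIMP1 hold 1 match each, and ADAMTS12 holds 1 match to TGANTCA and none to ACGTG. A match is a description of letters and does not show a binding site.

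The genes around the proteases were counted in lists by role, and each count stands beside 26.2% of all tested genes higher and 25.4% lower. Of 8 tested inhibitors and cofactors outside the TIMP family, 2 were higher and 3 lower. SPOCK2, a testican proteoglycan, was at 890.0 ± 43.5 normalized CPM in the untreated libraries and 565 ± 15.7 with Y-320 (log2 fold change -0.66, edgeR adjusted p = 1.46e-07). LRP1, the endocytic receptor that clears several proteases and their complexes, was at 110.2 ± 3.75 normalized CPM in the untreated libraries and 176 ± 7.31 with Y-320 (log2 fold change 0.68, edgeR adjusted p = 1.74e-07). SPOCK1 and TFPI2 were lower, with log2 fold changes of -0.48 and -0.28. RECK, a membrane-anchored inhibitor of MMPs, did not pass (-0.41, edgeR adjusted p = 0.0668).

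Proprotein convertases, which cut the propeptides of many ADAMs and membrane-type MMPs, gave 6 tested genes, 1 higher and 4 lower. FURIN itself did not pass, with 129 ± 1.99 normalized CPM in the untreated libraries and 127 ± 3.96 with Y-320 and a log2 fold change of -0.02. PCSK5 was lower at -0.78 (edgeR adjusted p = 1.4e-05) and PCSK4 higher at 0.47 (edgeR adjusted p = 0.00147). In the plasminogen activator system, 4 of 9 tested genes were higher and 3 lower (all genes, 26.2% and 25.4%). PLAUR, the urokinase receptor, was higher at 0.85 (edgeR adjusted p = 1.52e-07), as was SERPINF2, the plasmin inhibitor, at 1.36 (edgeR adjusted p = 1.41e-06). S100A10, a plasminogen-binding protein, was lower at -0.57 (edgeR adjusted p = 2.4e-07).

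The list of iRhoms, which carry ADAM17 to the surface, and tetraspanins, which do so for ADAM10, also held FRMD8, which is neither. Its 9 tested genes gave 4 higher and 5 lower. TSPAN5 was the one with the largest change, 0.56 on the log2 scale (edgeR adjusted p = 1.33e-05). RHBDF1 was lower (-0.31) and RHBDF2 higher (0.13), both by small amounts. Of 24 tested membrane proteins shed by ADAM10 or ADAM17, 13 were higher and 8 lower (all genes, 26.2% and 25.4%), with a median log2 fold change of 0.16. NRG1, a growth factor of the neuregulin group, was at 8.17 ± 0.931 normalized CPM in the untreated libraries and 1.02 ± 0.24 with Y-320 (log2 fold change -3.00, edgeR adjusted p = 2.26e-07). IL1R2, a decoy receptor, had estimated counts of 14, 13 and 9 without treatment and 66, 66 and 63 after Y-320 (log2 fold change 2.38, edgeR adjusted p = 7.51e-06). HBEGF, an epidermal growth factor receptor ligand, was at 2.79 ± 0.483 normalized CPM in the untreated libraries and 10.9 ± 0.435 with Y-320 (log2 fold change 1.97, edgeR adjusted p = 4.09e-07), and IL6R rose by 1.19 on the log2 scale (edgeR adjusted p = 1.68e-07). These are transcript levels, and shedding itself was not measured.

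Of 7 tested proteoglycan and matrix substrates of ADAMTS enzymes, 5 were lower and 1 higher (all genes, 25.4% and 26.2%), with a median log2 fold change of -1.15. VCAN, which encodes versican, was at 59.2 ± 2.99 normalized CPM in the untreated libraries and 9.87 ± 0.175 with Y-320 (log2 fold change -2.58, edgeR adjusted p = 5.58e-10). THBS1, THBS2 and FBN1 were lower by the same test, with log2 fold changes of -1.50, -1.34 and -1.15. The fibroblast markers COL1A2 (148 ± 8.4 normalized CPM in the untreated libraries and 80.3 ± 4.11 with Y-320) and LUM (46.5 ± 2.03 normalized CPM in the untreated libraries and 15.8 ± 0.553 with Y-320) were lower in the same libraries. ADAMTS-like proteins, which resemble ADAMTS enzymes without the protease domain, gave 4 tested genes, 1 higher and 1 lower. ADAMTSL4 was lower at -1.88 (edgeR adjusted p = 9.07e-09) and ADAMTSL5 higher at 0.36 (edgeR adjusted p = 0.0356). Of the astacins and other metzincins, PAPPA was higher (0.63, edgeR adjusted p = 0.00382) and BMP1, a procollagen C-proteinase, lower (-0.32, edgeR adjusted p = 3.86e-05), and no other gene of that list was tested.

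**Figure D4:**
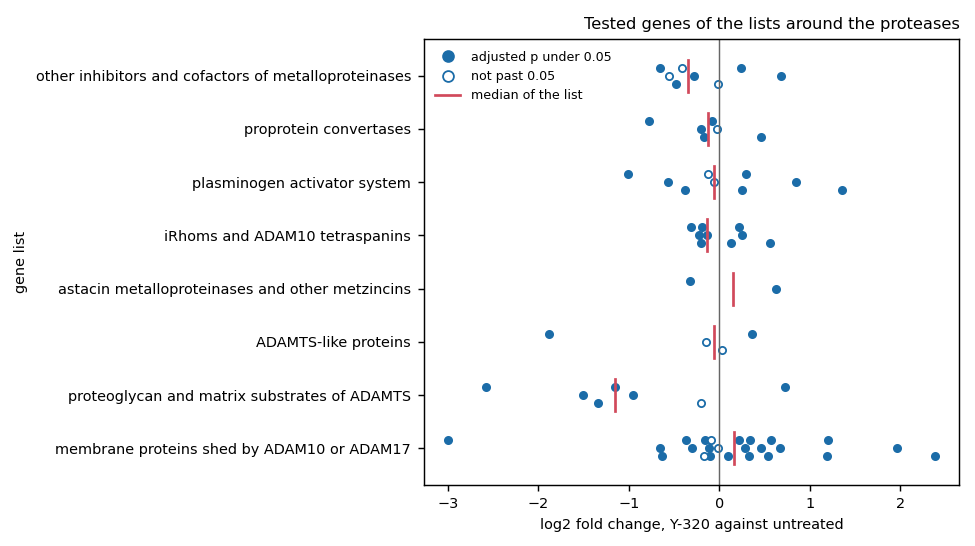
Log2 fold change, Y-320 against untreated, of the tested genes of 8 lists around the proteases; each point is a gene, filled where the adjusted p was under 0.05, and the red line is the median of the list. The median of the ADAMTS substrates lies at -1.15, and NRG1 at -3.00 and IL1R2 at 2.38 are the extremes of the shed proteins.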

How the data were processed

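RNA-seq of 6 libraries was analysed, 3 of untreated HDQ-P1 cells and 3 of cells treated with Y-320, grouped by their labels. The authors deposited estimated counts per gene without normalization, with kallisto 0.46.1 and GRCh38 (hg38) named in the submitters' processing notes. The Ensembl release, strand setting and read layout are not given in the sources used here. Since kallisto divides reads among transcripts, 36.0% of values were not whole (tolerance 0.01), and they were rounded. Of 40295 identifiers, 35390 matched a gene name. Positions and overlaps came from GENCODE 44 on hg38, and shared 31-base words were counted in its transcripts. No strand is known for the counts, so reads of overlapping genes on opposite strands cannot be told apart.

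edgeR 4.0.16 in R 4.3.3 filtered genes (filterByExpr, minimum of 10 counts and 15 in total), used TMM scaling and fitted a quasi-likelihood model to 16580 genes, with p-values adjusted by Benjamini-Hochberg and read at 0.05. Normalized CPM uses the TMM library sizes, and intervals are the log2 fold change plus and minus 1.96 standard errors. This is a normal approximation, narrower than a 95% interval of the quasi-likelihood test. For ADAM22, the interval was 0.02 to 0.42 although the unadjusted edgeR p was 0.0581. DESeq2 1.42.0 and limma 3.58.1 (voom) were alternatives, beside other filters and scalings, unrounded counts, stricter thresholds, a replicate block and the omission of each library. Tables, exact permutation tests and plots used Python 3.11.15 with scipy 1.17.1, pandas 2.3.3, matplotlib 3.10.9 and numpy 2.4.6.

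The members, role lists and marker lists were chosen with earlier results of these data known. Members were named when past the threshold with an absolute log2 fold change of at least 0.5, when a detected TIMP, ADAM10 or ADAM17, when among the 5 highest levels per length, or when a single library decided their call. Other members are given mainly by their log2 fold change, and MMP1, MMP7, MMP9, MMP14 and MMP19 were given in more detail after their values were seen. Each list around the proteases names up to 4 genes past the threshold with the largest change at a mean of at least 1 CPM. RECK, FURIN, RHBDF2, COL1A2, LUM, EPCAM, ESRP1, GRHL2 and CDH1 were added after their values were seen. The values of some listed genes are not reported here, and counts over lists include them. Counts of libraries within a group gave a chi-square per degree of freedom of 1.99 to 2.96, and those of libraries from different groups 40.5 to 42.5.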

Additional observations from a re-analysis of the deposited data

How the results depend on the processing

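The number of higher members was 5 to 7 over the alternatives and 6 to 7 when each library was left out. The number of lower members was 17 as reported, 14 to 16 when each library was left out, 15 with DESeq2, 13 at an adjusted p under 0.01 and 11 with an absolute log2 fold change of at least 0.5, where the count is smaller by construction. With the replicate number as a replicate block, 6 members were higher and 16 lower, and the call of ADAM23 was lost (edgeR adjusted p = 0.0747). Libraries with the same number showed no clear joint deviation (correlations of their deviations from the group means of -0.00236, 0.0155 and 0.00222). They did not all correlate best with their own number. The labels do not say whether they were prepared together, and correlations this small cannot decide it. Of 390 comparisons of 26 named members with an alternative, 371 kept their direction and side of the threshold, 15 lost the call, 4 gained one and 0 reversed. Among these 26, the lost calls were those of ADAM19, ADAM23 and ADAM32, and the gained ones those of ADAM8, ADAMTS1 and ADAMTS16. MMP19, which is not among the 26, lost its call with DESeq2. The cause was not tested. Detection gave 43 members with 10 counts in all 6 libraries and 55 with 1 count in 3 libraries. Members near 1 CPM rest on few counts, and their intervals are wide.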
